A study of Homo sapiens with 6 samples.

Results

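The mitochondrial ribosomal protein genes were taken as all protein-coding genes of GENCODE release 44 whose symbol is MRPL or MRPS followed by a number, with a closing letter A to C allowed for MRPS. The rule found 78 of 20033 protein-coding genes, and it used no measured value. By the systematic names of ribosomal proteins, 51 of them encode proteins of the large subunit of the mitochondrial ribosome (MRPS18A and MRPS30 included, in spite of their symbols) and 26 encode proteins of the small subunit. The remaining gene, MRPS36, is named as a ribosomal protein, but its product is now assigned to the 2-oxoglutarate dehydrogenase complex. Each gene was scored by the peaks within 1000 bp of any of its transcription start sites (TSSs) in 5 peak lists.

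The study used ChIP-seq, which sequences the DNA fragments that an antibody pulls down, in MDA-MB-231, an established human line of triple-negative breast cancer. An antibody against E2F1, a transcription factor, was used on untreated cells, on cells kept for 72 h in the solvent DMSO, and on cells kept for 72 h in 1 µM GSK126, which blocks the methyltransferase EZH2. The repressive histone mark H3K27me3, which EZH2 deposits, was mapped after lentiviral transduction for 24 h with a control shRNA or with an E2F1-directed hairpin (shE2F1), followed by 72 h of selection in 2 µg/ml puromycin. Every group held 1 library, so no difference between groups has a replicate check, and no p-value is given for one.

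Mitochondrial ribosomes translate the few messages encoded by mitochondrial DNA, all of which specify subunits of the respiratory chain and the ATP synthase. Their RNAs come from the mitochondrial genome, but all of their proteins are encoded in the nucleus, translated in the cytosol and imported, so both genomes have to supply parts of the same particle. E2F1 is best known for activating genes of DNA replication and the cell cycle, and nuclear respiratory factors, ETS factors such as GABPA, and YY1 are the regulators usually named for genes of mitochondrial proteins.

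The sequences that carry an E2F word at the strongest sites are shown first. An E2F word is TTCCCGC in its first form, with TTCGCGC as another form, TTGCCGC as a further form and TTGGCGC as the last form, each taken on either strand. None of the 4 contains another, and they were searched within 100 bp of the summit, the base of highest signal. Under GSK126 the strongest peak of 22 genes held at least 1 such word, and the windows below belong to the 10 of these genes with the highest fold enrichment. MRPL46 and MRPS11 lie head to head and share a peak, so they are written on the same line. Each window is 30 bases of hg38, 5′ to 3′, and the capitals mark the word.
MRPL37: gaccccgccatgTTGCCGCgcgcagggcct
MRPL46 and MRPS11: ctttcccctagtTTGCCGCtcccgcggctg
MRPL17: cgttccctgaaaTTGCCGCcaccggctcta
MRPL12: gaggtctgggctTTGGCGCcttcgcagccg
MRPL18: ccgttctccgctTTCGCGCccttcccatcg
MRPL57: gagaccgcagcTTCCCGCagaagctccgga
MRPS16: gcctcctccgcTTGCCGCcctatacttccc
MRPS27: ggaagaaccacTTGCCGCgccaggagcatc
MRPL11: cccacgtcgggTTCCCGCcacggccgcacc

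The first 5 windows were read from the minus strand and the last 4 from the plus strand. The MRPL37 window (chr1:54200183-54200212) and the MRPL12 window (chr17:81703018-81703047) lay in exonic UTR sequence of annotated transcripts, as did that of MRPS16 (chr10:73252659-73252688). The window shared by MRPL46 and MRPS11 (chr15:88467420-88467449) and that of MRPL11 (chr11:66438603-66438632) were intronic. Those of MRPL17 (chr11:6683347-6683376) and MRPL18 (chr6:159789765-159789794) lay between genes, and those of MRPL57 (chr13:21176438-21176467) and MRPS27 (chr5:72320166-72320195) overlapped annotated coding exons. TTGCCGC was the word in 5 of the 9 windows. The centre of the word lay 3 to 21 bp from the summit in 8 windows, and 70 bp from it at MRPL57.

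Of the 78 genes, MRPL51 had the highest fold in all 3 E2F1 lists, yet it held none of the 4 words within 100 bp of its GSK126 summit. Its window is shown for that contrast, with no capitals because no word was found in it (chr12:6493968-6493997, plus strand).
MRPL51: tatttgtggctttgcccgcgcgttgccaga
The whole MRPL51 peak, 1666 bp wide, held 1 E2F word, 633 bp from the summit. The absence of these exact letters says nothing about which factor bound there.

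E2F1 was called at few mitochondrial ribosomal protein genes in untreated cells and at most of them under GSK126. In the untreated list 5 of the 78 genes (6.41%, exact 95% interval 2.11% to 14.3%) had a summit within 1000 bp of a TSS, against a background of 5.83% of all protein-coding genes. In the DMSO list 32 (41.0%, 30.0% to 52.7%) had one, against 33.4%, and in the GSK126 list 54 (69.2%, 57.8% to 79.2%), against 51.3%. The untreated and DMSO shares were thus close to those of all genes, and the lower bound of the GSK126 interval lay above the share of all genes. All intervals on shares are Clopper-Pearson intervals over genes and cover counting error only, and neighbouring genes that share a peak are not independent.

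A gene without a peak is a gene at which nothing passed the caller's threshold, not a gene shown to be unbound. The lists differed in depth as well as in treatment. The lowest background of a list, which is the fragment number expected at an average base, was 0.668 untreated, 1.82 with DMSO and 1.70 with GSK126, and the lists held 1056, 15703 and 14276 E2F1 peaks. Depth and treatment therefore cannot be told apart in the comparison of the untreated list with the other two. The part of depth in the step from DMSO to GSK126 was not tested.

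**Figure D1:**
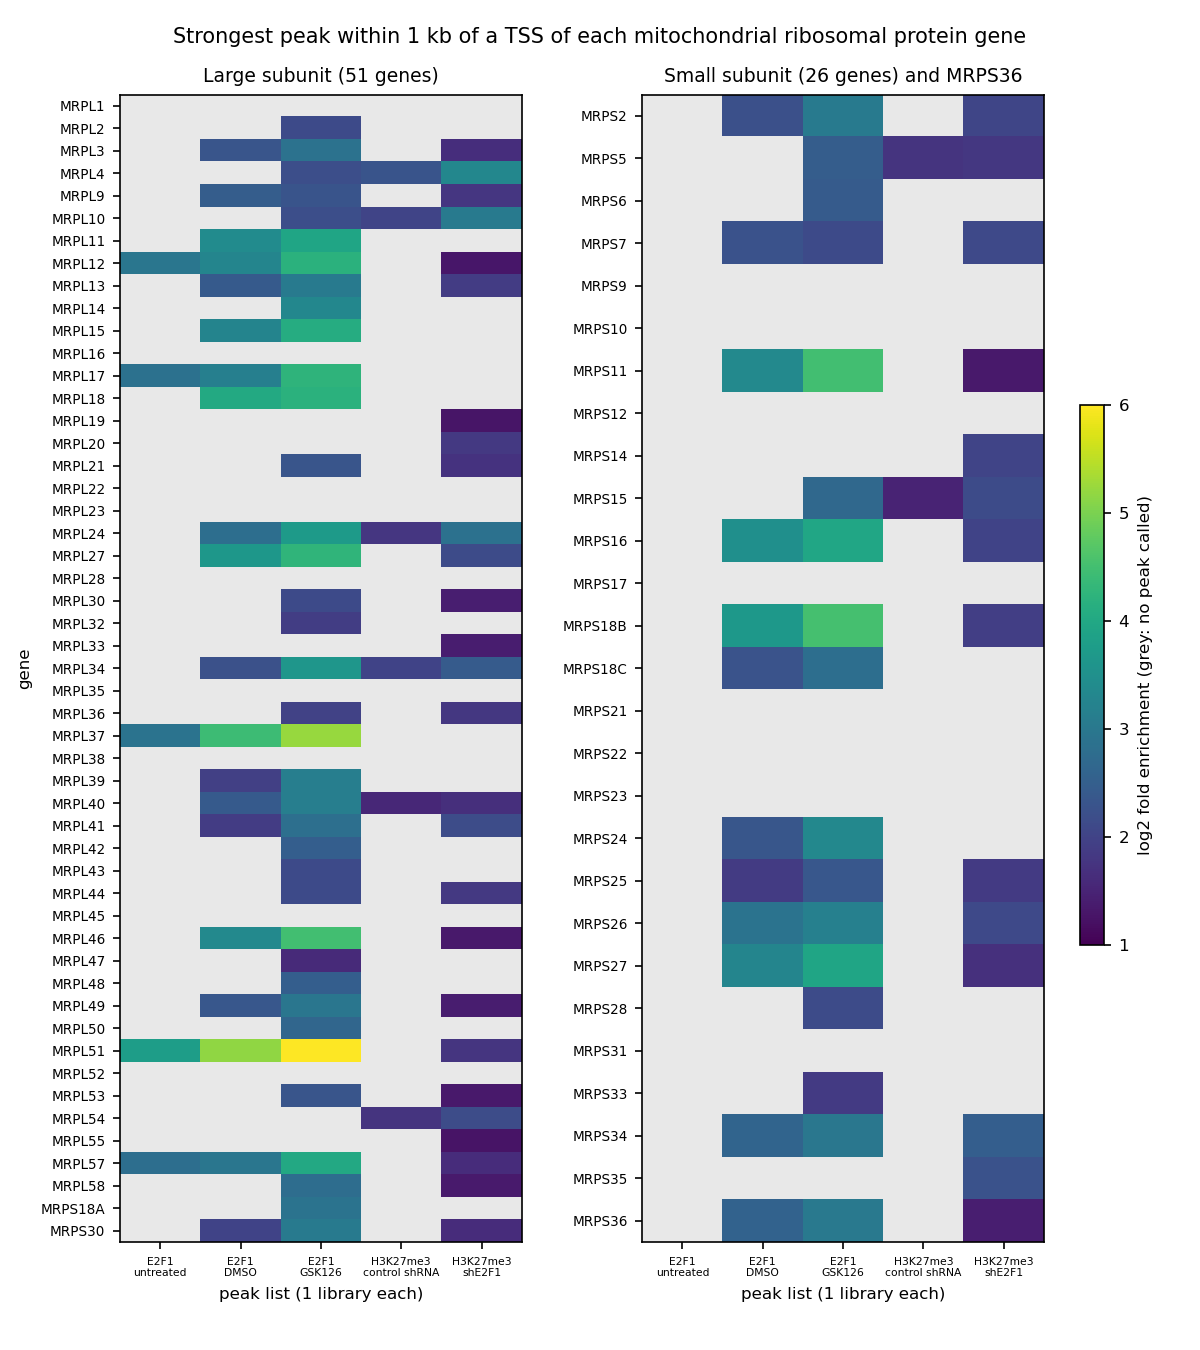
Fold enrichment (log2 colour scale) of the strongest peak within 1 kb of a TSS for each of the 78 genes (rows) in the 5 peak lists (columns, 1 library each), with grey for no called peak; E2F1 values are at the summit and H3K27me3 values are averages over a broad peak. The E2F1 columns fill from 5 genes in untreated cells to 32 in DMSO and 54 in GSK126, MRPL51 is the brightest row, and the H3K27me3 columns fill from 8 to 41.

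The 5 genes called in untreated cells all encoded large subunit proteins, and all 5 were also called in DMSO and GSK126. Fold enrichment here is the caller's ratio of fragments at the summit to background, with the same small constant added to both. It therefore falls short of the plain ratio, most where the background is low. The fragments behind it were recovered from the deposited fold and p-value. MRPL51, which encodes a large subunit protein with no bacterial counterpart, had a fold of 13.8 untreated, 36.2 with DMSO and 63.8 with GSK126. These values rested on 28 (exact Poisson interval 18.6 to 40.5), 235 (206 to 267) and 389 (351 to 430) fragments. The untreated peak spanned chr12:6493793-6494091, with its summit in a non-coding exon, 139 bp upstream of the nearest MRPL51 TSS and 113 bp from a TSS of NCAPD2, a condensin subunit that is transcribed away from MRPL51. The signal at this site can therefore not be assigned to MRPL51 rather than to its neighbour.

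MRPL37, another protein particular to the mitochondrial ribosome, reached a fold of 7.50, 21.6 and 37.6 in the same order, on 30, 104 and 171 fragments. Its untreated summit lay 5 bp from an MRPL37 TSS, and CYB5RL started 137 bp away on the other strand. MRPL12 encodes the stalk protein that recruits translation factors to the ribosome. Its fold was 7.76, 9.66 and 18.3, with 17, 54 and 95 fragments. The untreated summit lay 322 bp upstream of its annotated TSS, in UTR sequence of another annotated gene.

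MRPL17, a protein with a bacterial homologue, had a fold of 7.29, 8.87 and 19.0 in the 3 lists, on 20, 56 and 115 fragments. Its untreated summit was 9 bp from its TSS, with no other protein-coding gene starting within 1000 bp. MRPL57, a small mitochondria-specific protein, had a fold of 6.98, 7.82 and 16.3, on 15, 63 and 107 fragments. The nearest TSS to its untreated summit was that of SKA3, a kinetochore protein, at 31 bp, while the MRPL57 TSS was 142 bp away. Of these 5 genes, only MRPL17 had no TSS of another protein-coding gene within 1000 bp of its untreated summit. An E2F word lay within 100 bp of the untreated summit at 4 of the 5 (all except MRPL51). The fragment numbers above are not scaled for depth. Divided by the lowest background of each list, they were 30.0 untreated and 30.8 in DMSO at MRPL17, and 25.5 and 29.7 at MRPL12. In the same order they were 44.9 and 57.2 at MRPL37, 22.5 and 34.6 at MRPL57, and 41.9 and 129 at MRPL51.

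In DMSO the highest folds after MRPL51 and MRPL37 were 16.5 at MRPL18, 12.7 at MRPS18B and 12.5 at MRPL27. MRPL18 belongs to a family of proteins that in other ribosomes holds the small 5S RNA, and MRPL27 has a bacterial homologue that reaches towards the peptidyl transferase centre. Under GSK126 the order after MRPL51 and MRPL37 was MRPS18B at 22.9, the shared peak of MRPL46 and MRPS11 at 22.5, and MRPL27 at 19.4. The fragments at these GSK126 summits numbered 104 at MRPS18B, 77 at MRPL46 and MRPS11, and 98 at MRPL27. MRPS18B was thus the highest of the small subunit genes in both treated lists. The median fold of the genes with a peak was 7.50 untreated, 6.55 with DMSO and 7.66 with GSK126, beside 8.28, 6.03 and 7.78 for all protein-coding genes with a peak.

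No mitochondrial ribosomal protein gene had a peak in DMSO and not in GSK126 (0 of 78, exact upper limit 4.62%), against a background of 0.794%. In the other direction 22 genes (28.2%, 18.6% to 39.5%) had a peak under GSK126 and not in DMSO, against 18.7% of all protein-coding genes, so the share of all genes lay just inside the interval. They were MRPL2, MRPL4, MRPL10, MRPL14, MRPL21, MRPL30, MRPL32, MRPL36, MRPL42, MRPL43, MRPL44, MRPL47, MRPL48, MRPL50, MRPL53, MRPL58, MRPS5, MRPS6, MRPS15, MRPS18A, MRPS28 and MRPS33. Of these, 17 encoded large subunit proteins and 5 small subunit proteins. MRPL58 is a peptidyl-tRNA hydrolase built into the large subunit, and MRPL10 anchors the stalk that carries MRPL12.

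The peaks seen only under GSK126 were the weaker ones. Their median fold was 4.80 (3.03 at MRPL47 to 10.0 at MRPL14) on a median of 27.5 fragments (16 to 51), and 20 of the 22 had a −log10 q of at least 5. The 32 genes with a peak in both lists had a median GSK126 fold of 11.2 (4.38 to 63.8) on 59.0 fragments (19 to 389), and all 32 passed that q. Over all protein-coding genes the corresponding median folds were 5.34 for GSK126 alone and 10.0 for both, so the same difference was present outside these genes.

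Among the 32 genes with a peak in both lists, the fold was higher in GSK126 at 30 (93.8%), against 97.2% of the 6539 protein-coding genes with both peaks. It was at least doubled at 8 genes (25.0%), against 18.4%. The median of the log2 ratio of the GSK126 fold to the DMSO fold was 0.76 (order-statistic interval 0.52 to 0.92, range −0.17 to 1.37), and that of all protein-coding genes was 0.73. The mitochondrial ribosomal protein genes therefore moved by about as much as all genes did.

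Fold depends on the background under each peak, so the ratio was also taken on summit fragments over the lowest background of each library. On that scale the median log2 ratio was 0.81 (0.77 for all genes), and all 32 genes were above 0. The counting interval of the ratio lay above 0 at 19 of the 32 genes (59.4%) and below 0 at none, against 61.4% above 0 for all genes. These intervals cover the fragments counted in 1 library per treatment and not the difference between cultures.

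The largest ratios of fold belonged to MRPL34, whose fold was 4.75 in DMSO and 12.3 in GSK126 (log2 ratio 1.37), and to MRPL39, with 3.87 and 8.85 (1.19). The shared peak of MRPL46 and MRPS11 followed, with 10.2 and 22.5 (1.15), and then MRPL17 with 1.10. These are proteins of unlike place and origin. MRPL34 has a bacterial homologue, MRPL39 and MRPL46 are particular to mitochondria, and MRPS11 is a small subunit protein. On fragments the ratio was 1.14 (0.49 to 1.82) at MRPL34 and 0.90 (0.07 to 1.78) at MRPL39.

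At the other end the fold of MRPL9 was 5.54 in DMSO and 4.92 in GSK126 (log2 ratio −0.17), and that of MRPS7 was 4.78 and 4.38 (−0.13). Both ratios were slightly positive on fragments, at 0.02 (−0.96 to 1.00) for MRPL9 and 0.05 (−0.76 to 0.85) for MRPS7, so neither direction could be told from counting error. The next lowest were MRPL18 at 0.15, MRPS26 at 0.28 and MRPS34 at 0.37. MRPL18 thus had the third highest fold in DMSO (16.5) and one of the smallest differences to GSK126 (18.3). On fragments its ratio was 0.23 (−0.28 to 0.74).

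**Figure D2:**
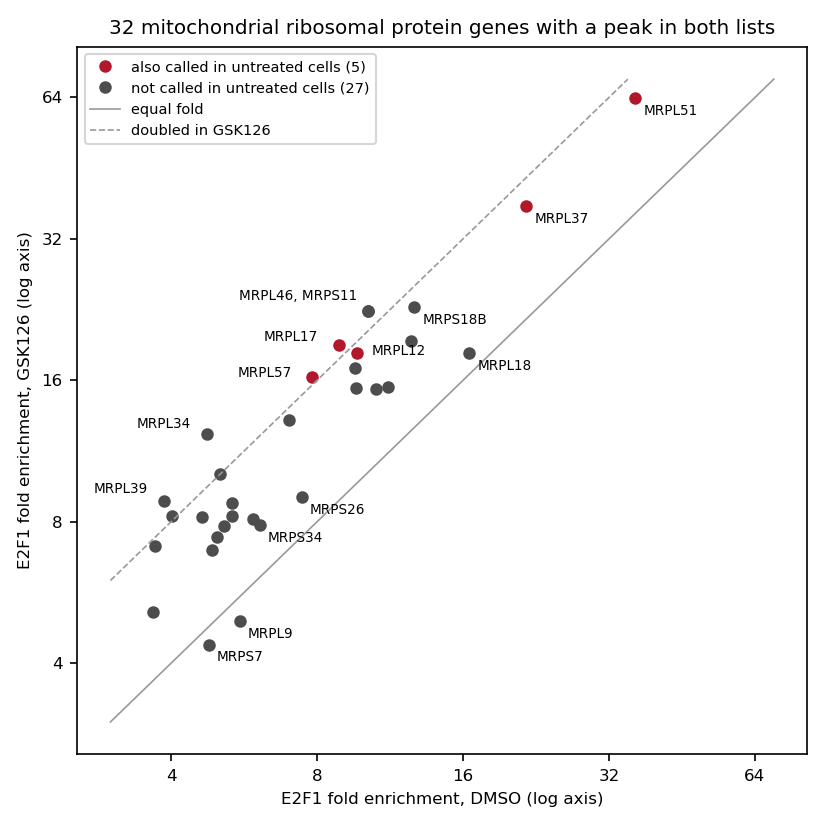
E2F1 fold enrichment of the strongest peak in DMSO (x, log axis) and GSK126 (y, log axis) for the 32 genes with a peak in both lists; each point is a gene, red for the 5 also called in untreated cells, and the lines mark equal and doubled fold. Of the 32 points 30 lie above the line of equal fold and 8 reach the line of doubled fold, while MRPL9 and MRPS7 lie just below equality.

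The E2F1 summits lay close to the starts of these genes. Under GSK126 the median distance to the nearest TSS of the gene was 75.5 bp, with 31 of 54 summits within 100 bp and the farthest at 553 bp (MRPS18B), and the median over all protein-coding genes with a peak was 97.0 bp. Measured to the TSS of the canonical transcript alone, the GSK126 median was 140 bp, against 153 bp for all genes. In DMSO the median distance to any TSS was 68.0 bp. Of the 54 GSK126 summits, 33 lay upstream and 21 downstream of that TSS. The summits fell in coding exons at 13 genes, UTR exons at 17, non-coding exons at 4, introns at 12 and between genes at 8. This placement uses the features of any annotated gene, so an exon or intron can be that of a neighbour. No placement over all genes is given beside it. Between DMSO and GSK126 the summit of a gene moved by a median of 40.0 bp and by at most 259 bp (MRPL40).

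Another gene often started near these genes. In an arrangement called head to head, a protein-coding gene on the other strand starts within 1000 bp upstream. It was found at 26 of the 78 genes, against 1895 of all 20033 protein-coding genes. Of these 26, 24 (92.3%) had a GSK126 peak and 15 a DMSO peak, whereas of the 52 others 30 (57.7%) had a GSK126 peak and 17 a DMSO peak. The same arrangement went with a higher share over all protein-coding genes, at 84.0% of 1895 head-to-head genes and 47.9% of 18138 others under GSK126. The part of this arrangement in the GSK126 share of the 78 genes (69.2% against 51.3%) was not tested. The head-to-head genes with the highest GSK126 fold were MRPL51 with NCAPD2, MRPL37 with CYB5RL, MRPS18B with PPP1R10, and MRPL46 with MRPS11, the last pair placing a large and a small subunit gene on the same promoter.

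At 13 genes the GSK126 summit was nearer to the TSS of another protein-coding gene than to that of the mitochondrial ribosomal protein gene, and all 13 were head to head. Besides MRPL51, MRPL57, MRPS18B and MRPL46 they included MRPL27, whose summit was nearest to EME1, a subunit of a DNA repair endonuclease, and MRPS18C, nearest to HELQ, a DNA helicase. MRPL10, MRPL21, MRPL30, MRPL32, MRPL47, MRPS2 and MRPS7 completed them. The remaining 41 of the 54 genes were themselves nearest to their summit. No such count over all protein-coding genes is given, so the 13 cannot be called particular to this family. Since 1 peak was shared, the 54 genes rested on 53 distinct GSK126 peaks and the 32 on 31 distinct DMSO peaks.

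**Figure D3:**
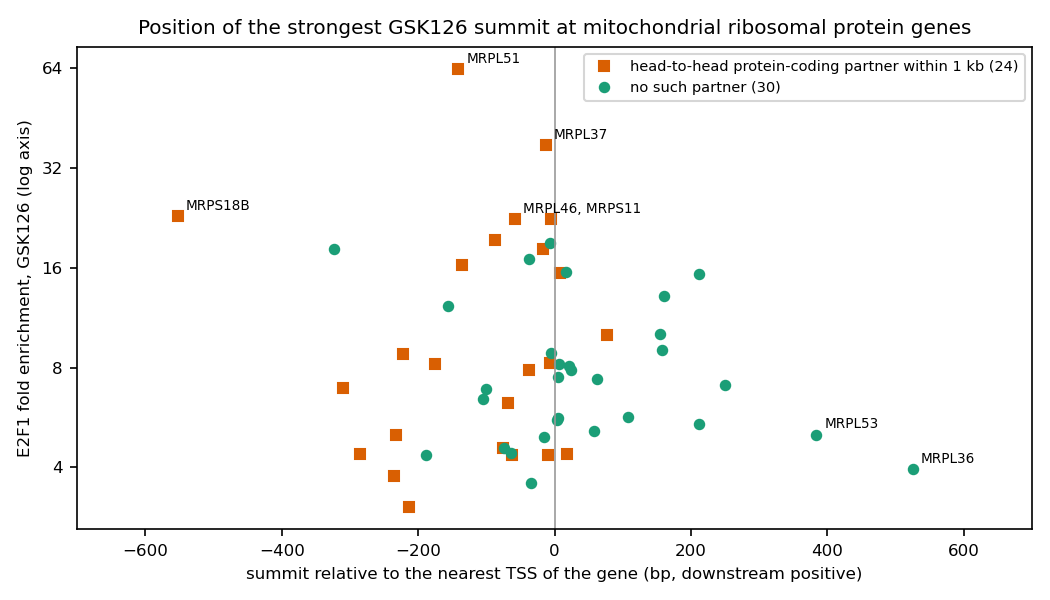
Position of the strongest GSK126 summit relative to the nearest TSS of the gene (x, bp, downstream positive) and its fold enrichment (y, log axis) at 54 genes, as orange squares for the 24 with a head-to-head partner and green circles for the 30 without. Of the 54 summits 31 lie within 100 bp of the TSS, MRPS18B is farthest at 553 bp upstream, and MRPL51 is highest at 63.8.

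No E2F1 peak was called in any list at 24 genes (30.8%, 20.8% to 42.2%), against 47.9% of all protein-coding genes. The 14 genes of the large subunit among them were MRPL1, MRPL16, MRPL19, MRPL20, MRPL22, MRPL23, MRPL28, MRPL33, MRPL35, MRPL38, MRPL45, MRPL52, MRPL54 and MRPL55. MRPL22 and MRPL23 have bacterial homologues at the nascent peptide exit tunnel, and MRPL45 takes part in docking the ribosome to the inner membrane. The 10 genes of the small subunit were MRPS9, MRPS10, MRPS12, MRPS14, MRPS17, MRPS21, MRPS22, MRPS23, MRPS31 and MRPS35. MRPS12 is the homologue of the bacterial protein at the decoding centre. At 17 of the 24 genes there was no H3K27me3 peak either. Such a peak was called at 1 of the 24 in control shRNA (4.17%, 0.105% to 21.1%) and at 7 in shE2F1 (29.2%, 12.6% to 51.1%). Over all protein-coding genes without an E2F1 peak these shares were 33.6% and 41.8%.

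By subunit, 37 of 51 large and 16 of 26 small subunit genes had a GSK126 peak, and 20 and 11 had a DMSO peak. The median GSK126 fold was 7.48 for the large and 7.41 for the small subunit. By origin, 30 of the 46 genes with a bacterial homologue and 23 of the 31 particular to mitochondria had a GSK126 peak, with 17 and 14 in DMSO. Neither division separated the genes with a peak from those without. The untreated peaks were split 5 to 0 between the subunits, too few to compare.

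Genes of related machinery were counted in the same way. Of 64 other genes of mitochondrial translation, which comprise ribosomal proteins with other symbols, translation factors, assembly factors and tRNA synthetases, 5 had an untreated peak, 24 a DMSO peak and 46 (71.9%) a GSK126 peak. Within them 20 of 22 assembly and RNA modification factors, 11 of 15 translation factors and 12 of 22 synthetases had a GSK126 peak. Of 84 cytosolic ribosomal protein genes 7, 53 and 74 (88.1%) had a peak in untreated cells, DMSO and GSK126. Of 87 nuclear genes of oxidative phosphorylation, whose products assemble with those made by the mitochondrial ribosome, 3, 25 and 53 (60.9%) did. In all 3 E2F1 lists the mitochondrial ribosomal protein genes had lower shares than the cytosolic ones. The intervals overlapped in untreated cells and DMSO, and under GSK126 their bounds met at 79.2% as rounded. Among the mitochondrial lists the share of the ribosomal protein genes lay between the other two in untreated cells and GSK126. In DMSO it was above both (41.0% against 37.5% and 28.7%), with intervals that overlapped.

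**Figure D4:**
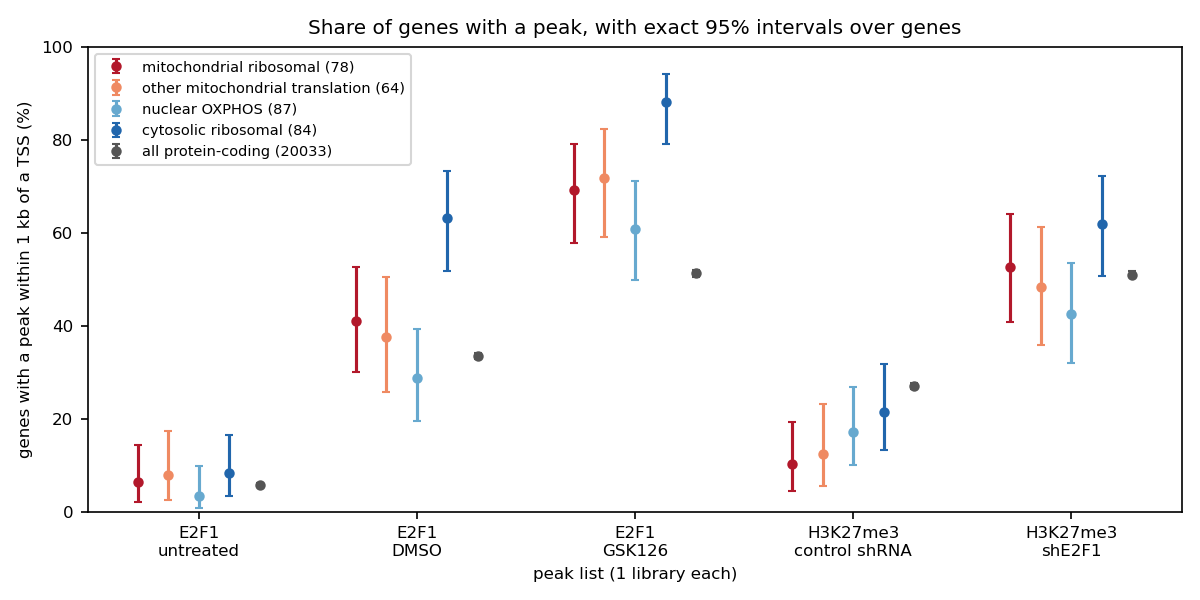
Share of genes (y, percent) with a peak within 1 kb of a TSS in each of the 5 lists (x, 1 library each) for the 78 mitochondrial ribosomal protein genes and 4 comparison sets; points are shares and bars are exact 95% intervals over genes. Under GSK126 the share is 69.2% for the mitochondrial ribosomal, 88.1% for the cytosolic ribosomal and 51.3% for all protein-coding genes.

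E2F words near the summit were somewhat more frequent at the strongest peaks of these genes than at all promoter peaks, with wide intervals. They were present in 4 of 5 untreated peaks (55.1% of all untreated promoter peaks), in 15 of 31 distinct DMSO peaks (48.4%, 30.2% to 66.9%, against 35.8%) and in 21 of 53 distinct GSK126 peaks (39.6%, 26.5% to 54.0%, against 30.9%). The untreated interval was 28.4% to 99.5%, and the background share lay inside the interval in every list. That background covers all promoter peaks and not only the strongest of each gene. In DMSO the median fold was 9.25 at the 16 genes with a word and 5.72 at the 16 without, whereas in GSK126 it was 7.03 at 22 genes and 7.85 at 32. The log2 ratio of GSK126 to DMSO fold was alike with a word (median 0.74, 14 genes) and without (0.77, 18 genes).

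Words of other factors were counted in the same windows, each motif separately, so that matches of different motifs may share bases. The YY1 word AANATGGC was present in 11 of 53 GSK126 peaks (20.8%, 10.8% to 34.1%), against 5.18% of all GSK126 promoter peaks. The ETS word CCGGAAG was present in 17.0% against 10.8%, the NRF1 word GCGCATGC in 5.66% against 2.90%, and the NF-Y word CCAAT in 24.5% against 21.2%. The YY1 word was the only one of these 4 whose interval did not contain the share of all promoter peaks.

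The promoters themselves, taken from RefSeq (GRCh38.p14) as 250 bases before to 50 after the start, were matched for 69 of the 78 genes. Those not matched were MRPL2, MRPL10, MRPL13, MRPL15, MRPL21, MRPL23, MRPL35, MRPS28 and MRPS36. The ETS word was in 42.0% of them (14.4% of 15345 promoters of protein-coding genes), the YY1 word in 36.2% (7.98%), the E2F words in 27.5% (17.4%), the NRF1 word in 8.70% (4.25%) and the NF-Y word in 29.0% (36.6%). These promoters were not richer in GC than others, with a median of 60.3% against 63.0%, and held a median of 24.0 CpG against 22.0.

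Among the matched genes, E2F words were in 16 of 47 promoters of genes with a GSK126 peak (34.0%, 20.9% to 49.3%) and in 3 of 22 without any E2F1 peak (13.6%, 2.91% to 34.9%). The ETS word ran the other way, at 34.0% (20.9% to 49.3%) and 59.1% (36.4% to 79.3%), as did the YY1 word at 31.9% and 45.5%. The intervals of the genes with and without a peak overlapped for each of these words. Overlap of separate intervals does not settle whether the shares differ, and the difference was not tested.

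H3K27me3 was called at few of these genes in control cells and at more of them in shE2F1 cells. A broad peak reached within 1000 bp of a TSS at 8 of the 78 genes in control shRNA (10.3%, 4.53% to 19.2%), against 27.02% of all protein-coding genes. In shE2F1 it did at 41 (52.6%, 40.9% to 64.0%), against 51.05%. A peak in shE2F1 and not in control shRNA was found at 33 genes (42.3%, 31.2% to 54.0%), against 25.96%, and the reverse at 0 genes (exact upper limit 4.62%), against 1.93%. The control share thus lay below that of all genes and the shE2F1 share near it.

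These calls were weak. The median −log10 q of the 41 shE2F1 peaks was 2.88, and their median fold was 3.49 beside 3.22 for all genes. Of the 41, 10 had a −log10 q of at least 5, and so did 1 of the 8 in control shRNA, MRPL4. At that q 9 of the 78 genes were called in shE2F1 and not in control shRNA, against 6.62% of all genes. Of these 9, only 4 had no control shRNA peak at any q, and the others had a weaker one. The peaks were narrow for a broad mark, with a median width of 362 bp in control shRNA (780 bp for all genes) and 390 bp in shE2F1 (670 bp).

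Reference genes were looked up in the same lists. ACTB, a housekeeping gene at which the mark is usually absent, had a peak in both lists, at 3.36-fold in control shRNA and 3.59-fold in shE2F1, and GAPDH had one in shE2F1 only, at 3.29. HOXA9 had a peak of 2.75 in control shRNA only, and HOXB9, HOXC9 and HOXD9 had none. Peaks of this size were therefore not limited to genes of the kind the mark is known for, and whether those at mitochondrial ribosomal protein genes reflect the mark was not tested.

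All 8 genes with a peak in both H3K27me3 lists had the higher fold in shE2F1. MRPL4, which has a bacterial homologue lining the exit tunnel, went from 4.90 to 10.0, with a −log10 q of 8.02 and 36.7. MRPL10 went from 4.08 to 8.30 and MRPL24 from 3.47 to 7.33, with a −log10 q in shE2F1 of 21.7 and 20.9. MRPL34 had 4.00 and 5.43, and MRPL54 3.35 and 4.45, and their −log10 q in shE2F1 was 10.1 and 10.5. These 5 genes, all of the large subunit, had the highest −log10 q among the shE2F1 peaks.

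The other genes with both peaks were MRPS15 (2.83 and 4.39), MRPL40 (2.96 and 3.18) and MRPS5 (3.38 and 3.49), the last pair with the smallest differences of the 8. The median log2 ratio of fold over the 8 genes was 0.54 (0.05 to 1.08), whereas over the 5025 protein-coding genes with both peaks it was −0.01, with 2432 of them higher in shE2F1. MRPL41, MRPS26, MRPS34 and MRPS35 had peaks only in shE2F1 that also reached a −log10 q of 5, with folds of 4.47, 4.30, 5.66 and 4.81. Of these 4, only MRPS35 had no E2F1 peak.

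The gain of an H3K27me3 call was then counted by E2F1 class, with no test between the classes. Of the 32 genes with an E2F1 peak in DMSO and GSK126, 21 (65.6%, 46.8% to 81.4%) had an H3K27me3 peak in shE2F1 and not in control shRNA, against 43.5% of all protein-coding genes of that kind. Of the 22 with an E2F1 peak under GSK126 alone, 6 (27.3%) did, against 32.6%, and of the 24 without an E2F1 peak 6 (25.0%) did, against 11.4%. The lower bound of the first interval lay just above the share of all genes with both E2F1 peaks. The share of that class with a shE2F1 H3K27me3 peak was 75.0% (56.6% to 88.5%). That interval held the 62.4% of all such genes. In control shRNA the share was 9.38% (1.98% to 25.0%), against 19.4%, also inside its interval. Of the 21, only MRPL41, MRPS26 and MRPS34 passed the stricter q used above. MRPL46 and MRPS11 shared the same shE2F1 peak, and the MRPS27 peak overlapped no DMSO E2F1 peak. The E2F1 and H3K27me3 lists came from separately treated cells, and the E2F1 calls are those of cells without the shRNA.

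Of the 41 genes with a shE2F1 H3K27me3 peak, 34 (82.9%, 67.9% to 92.8%) had that peak overlapping a GSK126 E2F1 peak by at least 1 bp, against 54.9% of the 10226 protein-coding genes with such a peak. GSK126 E2F1 peaks were themselves called at more of these genes (69.2% against 51.3%), and the part of that in the overlap was not tested. The 7 without were MRPL19, MRPL20, MRPL33, MRPL54, MRPL55, MRPS14 and MRPS35, none of which had an E2F1 peak. In control shRNA 7 of the 8 peaks (87.5%, 47.3% to 99.7%) overlapped a GSK126 E2F1 peak, against 28.01% of all genes with a control peak, MRPL54 being the exception. Of the 5 genes with an untreated E2F1 peak, MRPL51, MRPL12 and MRPL57 were called for H3K27me3 in shE2F1 alone. Their folds were 3.40, 2.46 and 3.10, and MRPL37 and MRPL17 had no H3K27me3 peak.

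**Figure D5:**
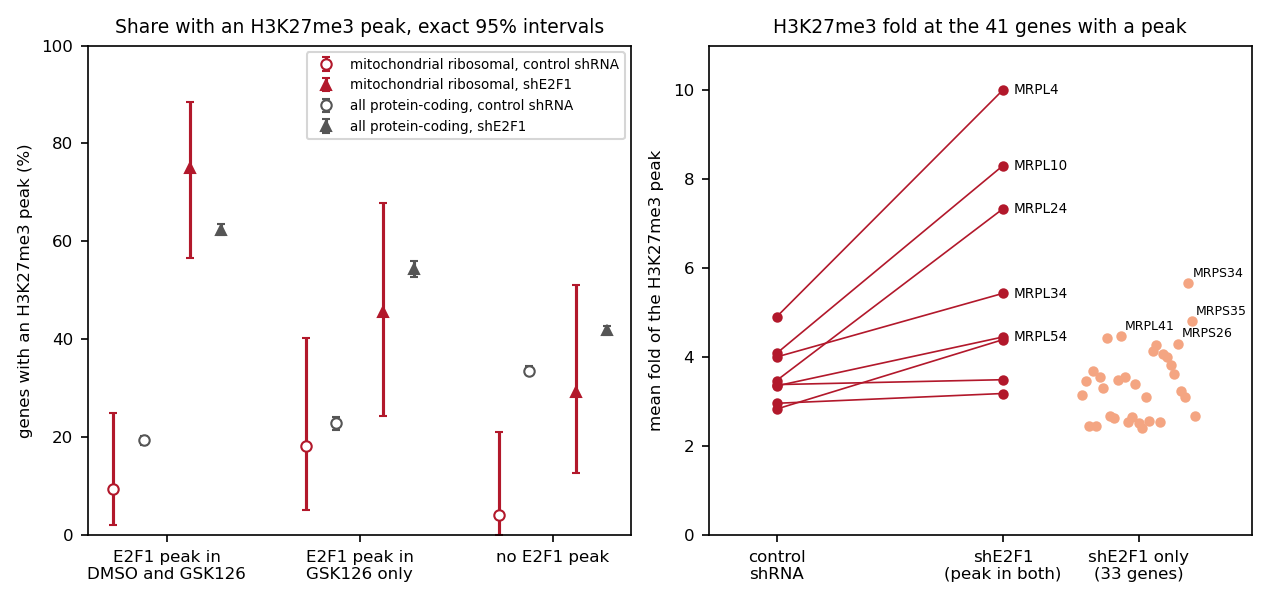
Left, share of genes (percent, exact 95% intervals over genes) with an H3K27me3 peak in control shRNA (open circles) and shE2F1 (triangles), by E2F1 peaks, for mitochondrial ribosomal (red) and all protein-coding genes (grey); right, mean fold of the H3K27me3 peak at the 8 genes with a peak in both lists (lines) and the 33 with a peak in shE2F1 alone (pale points). All 8 lines rise, MRPL4 from 4.90 to 10.0, and MRPS34 is the highest of the pale points at 5.66.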

How the data were processed

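ChIP-seq libraries of MDA-MB-231 cells were analysed, 1 per group, from 5 deposited peak lists. An input library was not used here. Per the submitters' processing notes and the study's methods, the authors used FastQC 0.11.5, cutadapt 4.5, Picard, SAMtools and Bowtie2 2.5.2 on GRCh38 (hg38), and called peaks per library with MACS2 2.2.9.1, narrow for E2F1 and broad for H3K27me3. The control library for peak calling is not given in the sources used here. The labels state sonication for all libraries, whereas the methods state micrococcal nuclease for histone marks.

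The deposited lists give the fold enrichment (a ratio at the summit, or its mean over a broad peak), −log10 p-value and −log10 q-value, a score that was not used, and the summit offset, all as the authors made them. Fragments at E2F1 summits were solved from fold and p, and whole numbers within 2e-05 were found for all peaks. An E2F1 peak belonged to a gene when its summit, and an H3K27me3 peak when any base, lay within 1000 bp of a GENCODE 44 TSS. The strongest peak was that with the highest fold. Python 3.11.15, numpy 2.4.6 and scipy 1.17.1 were used, and the scripts were tested on simulated data. With 1 library per group, shares carry exact 95% intervals and no test was made between conditions.

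The genes and lists were chosen with earlier results of these data known. Genes named were all with an untreated E2F1 peak, with no E2F1 peak, or with a control shRNA H3K27me3 peak, the 5 highest by fold in DMSO and GSK126, the 5 highest and lowest ratios, the 5 highest −log10 q in shE2F1, the 10 highest with an E2F word, and the 5 highest head-to-head genes. Other genes were named where a count of them was given, after their values were seen. Alternatives were a 500 bp window, canonical TSSs, −log10 q of at least 5, any base or the midpoint of the peak, overlapping pairs, other motif windows and fragments in place of fold.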

Additional observations from a re-analysis of the deposited data

How the results depend on the processing

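Of 49 alternatives, 46 left the result within the limits set for a change, 3 moved it and 0 reversed it. Requiring a −log10 q of at least 5 left 1 gene with an H3K27me3 peak in control shRNA in place of 8, and 10 in shE2F1 in place of 41. In shE2F1 alone it left 9 in place of 33, and 4 of these 9 had no control shRNA peak at any q. The cause was not tested. The corresponding shares of all protein-coding genes were 2.60%, 9.16% and 6.62%. With canonical TSSs only, the median distance from the GSK126 summit to the TSS was 140 bp in place of 75.5 bp, which lay just within the order-statistic interval of that median. The E2F1 counts ranged from 29 to 32 in DMSO and from 52 to 54 in GSK126. The count of genes with an E2F word at the GSK126 peak depended on the window searched. It was 15 within 50 bp of the summit and 31 in the whole peak, in place of 22 within 100 bp. No paired analysis was possible because each group held 1 library, and for the same reason no replicate could be left out. Peak lists hold only regions past the caller's threshold, so the depth of each library limits which genes could be called, most of all in untreated cells.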
